A study of Rattus norvegicus with 10 samples.

Results

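The insulin-like growth factors, their receptors and their binding proteins were followed in muscle of rats with collagen-induced arthritis (CIA), a joint disease set off by immunization with type II collagen. Members were taken by symbol from the deposited expression table, as Igf1, Igf2, Igf1r, Igf2r, Igfbp2, Igfbp3, Igfbp4, Igfbp5, Igfbp6 and Igfbp7. These 10 genes of 16497 symbols are listed as 15 of the 17221 transcripts, and 8 transcripts, 1 for each of 8 genes, passed the filter on low values (a level of 1 CPM or more in each library of some group). CPM stands for counts per 1000000 reads, scaled by the authors between libraries.

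The table holds 10 libraries of polyadenylated RNA from 10 female Wistar rats, in 5 groups of 2. All 10 rats carried CIA, the controls included, and the animals' age is not given in the sources used here. Muscle beneath the skin was taken before any therapy (RA_0), after 1 h (AP_1h) or 34 days (AP_34d) of acupuncture, and at 1 h (PLA_1h) or 34 days (PLA_34d) of placebo, which was saline. Per the study's methods, acupuncture was a needle inserted and twirled at points of the lower back and below the knee, the tissue was cut from around these points, and saline was injected into the peritoneum. Per the study, needling was repeated every other day and the saline injection weekly. Acupuncture and placebo thus differ in the schedule and the place of the puncture as well as in its kind. The groups without arthritis of the study are not analysed here.

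Igf1 and Igf2 are small secreted hormones related to insulin that drive growth of muscle and other tissues. Both signal through the receptor tyrosine kinase encoded by Igf1r, while the product of Igf2r, which also carries mannose 6-phosphate tagged enzymes to lysosomes, takes up and degrades Igf2. The Igfbp genes encode secreted proteins that hold the growth factors, prolong their life in fluids and either hinder or help their reaching the receptor, and Igf1, Igf2 and Igfbp5 are well known from muscle growth and regeneration.

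The libraries held 5371687 to 8899521 counted reads, so 1 CPM stood for 4.19 to 10.1 reads and the limit that a count of 0 allows (3 reads, counting error only) was 0.297 to 0.716 CPM. The labelled tissue matched its markers, since all 8 skeletal muscle fibre genes checked were above 0 and their summed level was 126299 to 325754 CPM. Replicate 1 of PLA_34d stood apart by 5 genes of leukocytes and B cells, at a sum of 254 CPM there and 1.19 to 9.51 CPM in the other 9 libraries, with Ptprc, which marks all leukocytes, listed at 0 in all 10. The 7 adipocyte genes were also highest there, at 163 CPM against 9.78 to 80.2 CPM elsewhere. The RA_0 libraries differed too, at 9.78 and 80.2 CPM for these adipocyte genes and 325754 and 187867 CPM for the muscle fibre genes. Their sums were 45.1 and 227 CPM for Schwann cell genes and 79.2 and 230 CPM for tendon genes. They were closer for endothelial genes (160 and 171 CPM) and macrophage genes (93.3 and 86.4 CPM). In bulk tissue, fewer cells of a type and less RNA per cell cannot be told apart.

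None of the 8 tested transcripts passed an adjusted p of 0.05 (limma, Benjamini-Hochberg over all 10259 tested transcripts) in any of the 10 comparisons, and the lowest adjusted p of a member was 0.524. Over all tested transcripts, 0.0292% passed in AP_1h against RA_0 and 0.0% in each of the other 9 comparisons. Of the 80 pairs of a member and a comparison, 4 were at an unadjusted p under 0.05 in limma, 1 of Igf2 and 3 of Igfbp6. Members called were also 0 with DESeq2, edgeR and limma-voom on the recovered reads. With 2 rats a group, the p-values rest on the spread between libraries of a group, pooled over the 5 groups. In limma this spread is also moderated toward that of other transcripts of like level. The plot of levels by library shows where the members' libraries lay.

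**Figure D1:**
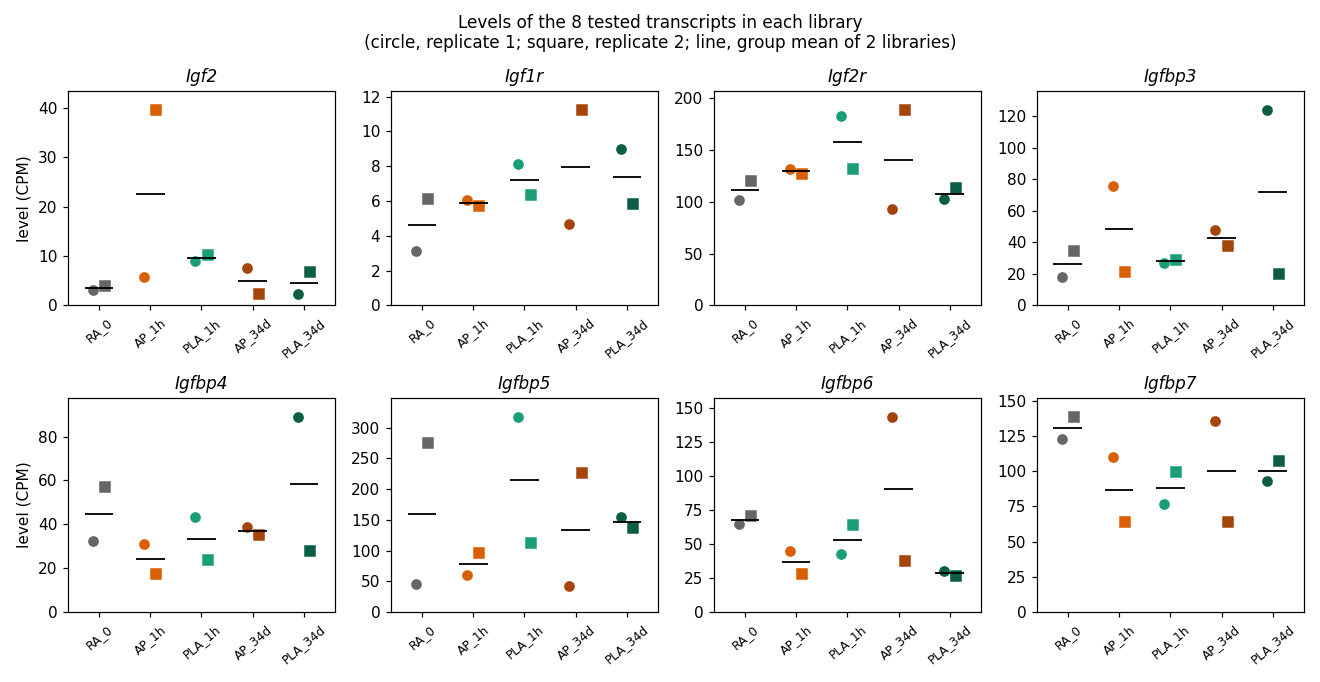
Level in CPM (linear axes from 0) of the 8 tested transcripts in the 10 libraries, by group. Circles are replicate 1, squares replicate 2 and lines the group mean of 2 libraries. Igf2 reached 39.5 CPM in replicate 2 of AP_1h, Igfbp3 and Igfbp4 were highest in replicate 1 of PLA_34d, and Igfbp6 was highest in replicate 1 of AP_34d and lowest in replicate 2 of PLA_34d.

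Among the ligands, Igf1 (chromosome 7 of rn4, 24531669 to 24605742) is listed as 4 transcripts, NM_001082477, NM_001082478, NM_001082479 and NM_178866, all at 0 reads in all 10 libraries. They form 2 pairs that share both start and end. The reads were counted in a mode that drops a read fitting more than 1 transcript, and of the 388 transcripts in the table that share both ends with another of their symbol, 69.1% were at 0 in all libraries, against 18% of the transcripts that overlap no other of their symbol. Igf1 is thus given as listed at 0, with no fold and without being taken as absent from the tissue.

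Igf2 (chromosome 1 of rn4, minus strand, 202906623 to 202916730) is listed as 3 transcripts that share their downstream end and differ in their start. NM_031511 held 647 reads over the 10 libraries, while NM_001190162 held 21 and NM_001190163 held 7, and these last transcripts did not pass the filter. Reads in the exons that the 3 transcripts share are lost in the same way, so the levels below count only what was unique to NM_031511. All 3 also overlap the microRNA gene Mir483, and whether strand was used in counting is not given in the sources used here.

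The promoters of the genes were read from RefSeq (GRCr8), which matched all 10 members with 11 starts among 33469 promoters. The sequences below are the 250 bases before the start. The Igf2 starts are shown because the transcripts of that gene differ by their start, and Igfbp6 and Igfbp7 because their levels moved most alike among the binding proteins. The Igf2 starts lie 3505 bases apart, as do those of NM_001190163 (7 reads) and NM_001190162 (21 reads) in the files. The start of NM_031511 (647 reads), the tested transcript, lies between them in rn4, 1568 and 1937 bases away, so neither window is its own. Capitals mark the GC box (GGGCGG or its reverse CCGCCC), and the letters TATAAA and CCAAT, also searched on both strands, occur in none of the 4.
Igf2 upstream start, chr1:207253981-207254230, minus strand: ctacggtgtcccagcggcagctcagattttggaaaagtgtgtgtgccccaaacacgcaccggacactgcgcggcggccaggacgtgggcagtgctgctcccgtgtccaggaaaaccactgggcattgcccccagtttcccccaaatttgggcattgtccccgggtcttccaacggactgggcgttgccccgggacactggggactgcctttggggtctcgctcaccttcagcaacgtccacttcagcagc
Igf2 downstream start, chr1:207250476-207250725, minus strand: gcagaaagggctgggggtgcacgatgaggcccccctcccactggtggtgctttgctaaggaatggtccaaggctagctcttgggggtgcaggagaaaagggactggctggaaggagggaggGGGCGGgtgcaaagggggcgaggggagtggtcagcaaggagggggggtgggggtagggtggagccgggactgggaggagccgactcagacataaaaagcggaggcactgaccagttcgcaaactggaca
Igfbp6, chr7:135154669-135154918, plus strand: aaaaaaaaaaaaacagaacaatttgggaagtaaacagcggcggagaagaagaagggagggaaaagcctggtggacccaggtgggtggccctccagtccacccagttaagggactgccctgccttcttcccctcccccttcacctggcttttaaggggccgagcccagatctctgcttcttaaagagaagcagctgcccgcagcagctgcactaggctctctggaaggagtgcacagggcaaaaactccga
Igfbp7, chr14:31091486-31091735, plus strand: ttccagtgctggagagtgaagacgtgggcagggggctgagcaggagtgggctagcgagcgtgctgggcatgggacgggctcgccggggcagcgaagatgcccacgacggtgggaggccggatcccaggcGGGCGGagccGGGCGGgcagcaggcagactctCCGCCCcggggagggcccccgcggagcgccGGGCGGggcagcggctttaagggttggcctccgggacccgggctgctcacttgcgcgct
The downstream Igf2 window held 1 GC box, starting 129 bases before the start, and the upstream one none. The window of Igfbp7 held 4 and that of Igfbp6 none. Of all promoters, 30.5% held a GC box, 12.9% a TATAAA and 34% a CCAAT. Igf2r held 2 GC boxes, Igf1r and Igfbp2 1 each, and Igfbp4 was the member with a TATAAA, 40 bases before its start. The GC share of the windows ran from 46.8% in Igf1 to 79.6% in Igf1r, against a median of 51.2% over all promoters.

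The Igf2 transcript NM_031511 was at 3.10 and 3.86 CPM in RA_0, 5.73 and 39.5 CPM in AP_1h, 9.02 and 10.2 CPM in PLA_1h, 7.62 and 2.39 CPM in AP_34d, and 2.36 and 6.82 CPM in PLA_34d. All 4 libraries taken at 1 h were above both RA_0 libraries, while the libraries of both groups at 34 days overlapped RA_0. The high value of AP_1h was 282 reads in replicate 2 against 53 reads in replicate 1. On the log2(CPM + 1) scale, on which all differences are given and which understates the change of low transcripts, AP_1h was 1.89 ± 0.77 (SE) above RA_0 (limma, unadjusted p = 0.0332, adjusted p = 0.524). Without replicate 2 of AP_1h the difference was 0.59. PLA_1h was 1.25 ± 0.77 above RA_0 (limma, adjusted p = 1.00), and AP_1h and PLA_1h overlapped.

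H19 is a maternally expressed RNA gene that is imprinted together with the paternally expressed Igf2. It lies 81.0 kb from Igf2 in rn4 on the same strand. H19 also overlaps the microRNA gene Mir675 in the annotation. Its levels in CPM were 18745 and 19041 in RA_0, 47317 and 68412 in AP_1h, 34227 and 20659 in PLA_1h, 15735 and 8491 in AP_34d, and 15582 and 11978 in PLA_34d. The 2 AP_1h libraries were above the other 8, and H19 took 5.58% and 6.24% of the counted reads there, against 0.899% to 3.88% in the others. The summed level of 5 satellite cell and myoblast genes was also highest in AP_1h, at 568 and 330 CPM, against 66.8 and 226 CPM in RA_0, 328 and 224 CPM in PLA_1h, 108 and 320 CPM in AP_34d, and 140 and 149 CPM in PLA_34d, and its part in the Igf2 and H19 values was not tested. For H19, AP_1h was 1.59 ± 0.96 above RA_0 (limma, adjusted p = 0.687) and AP_34d was -2.30 ± 0.96 from AP_1h (limma, unadjusted p = 0.0372, adjusted p = 0.906). DESeq2 on the recovered reads called both, at adjusted p = 0.0163 and 0.000121. The SD of H19 between libraries of a group was 0.42 on the log2(CPM + 1) scale. The SE of 0.96 is larger because of the moderation in limma, so it does not stem from the H19 replicates alone. Across the 10 libraries Igf2 and H19 had a Pearson's r of 0.72 and a Spearman's rho of 0.65 on the log scale, and r was 0.44 without the 2 libraries farthest from the Igf2 median. This is a description over libraries that share groups and scaling.

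**Figure D2:**
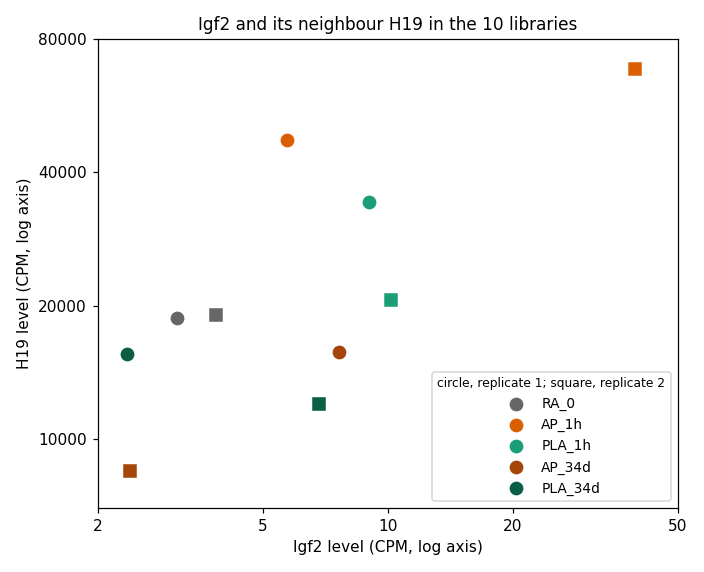
Level of H19 against level of Igf2 (NM_031511) in the 10 libraries, both in CPM on log axes, by group, with circles for replicate 1 and squares for replicate 2. Replicate 2 of AP_1h was highest in both genes, at 39.5 CPM of Igf2 and 68412 CPM of H19, and replicate 1 of AP_1h was second in H19 at 5.73 CPM of Igf2.

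Of the receptors, Igf1r (NM_052807) was read at 13 to 82 reads a library. Its levels were 3.10 and 6.09 CPM in RA_0, 6.05 and 5.74 CPM in AP_1h, 8.13 and 6.32 CPM in PLA_1h, 4.69 and 11.2 CPM in AP_34d, and 8.97 and 5.83 CPM in PLA_34d. Replicate 1 of RA_0 was lowest and replicate 2 of AP_34d highest, and of the comparisons with RA_0 the libraries did not overlap in PLA_1h alone, which was 0.60 ± 0.45 higher (limma, adjusted p = 1.00). All 4 groups after therapy were on average 0.35 to 0.63 above RA_0, with the 95% interval including 0 in each, and the 4 comparisons share the RA_0 libraries.

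Igf2r (NM_012756; chromosome 1 of rn4, 42253273 to 42341646) varied least of the members, 2.03-fold between its lowest and highest library. Its levels were 102 and 120 CPM in RA_0, 132 and 127 CPM in AP_1h, 183 and 132 CPM in PLA_1h, 93.0 and 188 CPM in AP_34d, and 103 and 113 CPM in PLA_34d. By group mean the order was PLA_1h (157 ± 36.0 CPM, SD, n = 2), AP_34d (141 ± 67.5), AP_1h (129 ± 3.41), RA_0 (111 ± 13.3) and PLA_34d (108 ± 7.17). AP_34d overlapped all 4 other groups, so of the neighbours in this order only AP_1h and RA_0 did not overlap. The largest difference from RA_0 was that of PLA_1h, at 0.49 ± 0.36 (limma, adjusted p = 1.00), and PLA_34d was -0.52 ± 0.36 from PLA_1h (limma, adjusted p = 0.999).

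Of the 6 binding proteins, Igfbp2 did not pass the filter. Its highest level was 2.87 CPM (29 reads) in replicate 1 of PLA_1h, and the other 9 libraries held 0 to 6 reads (0 to 0.896 CPM). Its neighbour on chromosome 9, Igfbp5, lies 9.43 kb away in rn4 on the opposite strand.

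Igfbp3 (NM_012588), which carries most of the circulating growth factors in a complex with the Igfals product, was at 18.1 and 34.8 CPM in RA_0, 75.8 and 21.1 CPM in AP_1h, 26.9 and 29.0 CPM in PLA_1h, 47.7 and 37.6 CPM in AP_34d, and 124 and 20.2 CPM in PLA_34d. Both AP_34d libraries were above both RA_0 libraries, by 0.73 ± 0.77 (limma, adjusted p = 0.967), and in the 3 other groups the libraries overlapped RA_0. The 124 CPM came from replicate 1 of PLA_34d, the library with the leukocyte genes, whose part in this value was not tested. The summed level of 8 macrophage genes was 93.3 and 86.4 CPM in RA_0, 247 and 90.8 CPM in AP_1h, 118 and 86.9 CPM in PLA_1h, 202 and 115 CPM in AP_34d, and 223 and 69.4 CPM in PLA_34d. The 3 libraries highest in it were the 3 highest in Igfbp3, and its part was not tested either. PLA_34d was 0.97 ± 0.77 above RA_0 (limma, adjusted p = 0.914), and without that library the difference was -0.30. Igfals itself, the partner in the circulating complex, was listed at 0 to 1.19 CPM, and Igfbp1, 3.86 kb from Igfbp3 on chromosome 14, at 0 to 0.297 CPM.

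Igfbp4 (NM_001004274), which binds both growth factors and is cut by the protease encoded by Pappa, was at 32.4 and 56.9 CPM in RA_0, 31.2 and 17.2 CPM in AP_1h, 43.5 and 23.5 CPM in PLA_1h, 38.7 and 35.3 CPM in AP_34d, and 88.8 and 27.7 CPM in PLA_34d. Both AP_1h libraries were below both RA_0 libraries, though by little (31.2 against 32.4 CPM), and the difference was -0.86 ± 0.55 (limma, adjusted p = 0.698). AP_34d was 0.65 ± 0.55 above AP_1h without overlap (limma, adjusted p = 0.959). Its highest value was again that of replicate 1 of PLA_34d, and without that library PLA_34d went from 0.21 above RA_0 to -0.62.

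Igfbp5 (NM_012817), a binding protein of muscle and connective tissue, had the largest SD between replicates of the members. It was at 44.9 and 275 CPM in RA_0, 60.2 and 95.3 CPM in AP_1h, 317 and 112 CPM in PLA_1h, 41.6 and 226 CPM in AP_34d, and 155 and 137 CPM in PLA_34d. The replicates differed 6.13-fold in RA_0 and 5.43-fold in AP_34d, and 1.13-fold in PLA_34d. Both AP_1h libraries were below both PLA_1h libraries, by -1.30 ± 0.90 (limma, adjusted p = 1.00), and with this spread the 95% interval ran from -3.31 to 0.71.

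Igfbp6 (NM_013104; chromosome 7 of rn4, 140885388 to 140890027), which prefers Igf2 over Igf1, had the most comparisons at an unadjusted p under 0.05. It was at 64.4 and 70.7 CPM in RA_0, 45.1 and 27.8 CPM in AP_1h, 42.5 and 63.9 CPM in PLA_1h, 143 and 37.2 CPM in AP_34d, and 30.3 and 26.6 CPM in PLA_34d. All libraries of AP_1h, PLA_1h and PLA_34d were below both RA_0 libraries, in PLA_1h narrowly (63.9 against 64.4 CPM), while AP_34d held the highest library of all and 1 below RA_0.

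PLA_34d was -1.22 ± 0.53 from RA_0 for Igfbp6 (limma, unadjusted p = 0.0453, adjusted p = 0.914), with 28.4 ± 2.62 CPM (SD, n = 2) against 67.6 ± 4.44. AP_34d was 1.34 ± 0.53 above PLA_34d (limma, unadjusted p = 0.0311, adjusted p = 0.856), and both AP_34d libraries were above both PLA_34d libraries. At 1 h the same contrast was -0.54 ± 0.53 with overlap, and the difference of the contrasts between times was 1.88 ± 0.76 (limma, unadjusted p = 0.0319, adjusted p = 1.00). The contrasts with AP_34d rested on its replicate 1, since without it AP_34d was 0.38 above PLA_34d, and the difference between times was 0.92. Of the 9 fibroblast genes checked, the summed level was 3047 CPM in that library, 1279 in replicate 2 of AP_34d, 1917 and 1026 in PLA_34d, and 1425 and 3534 in RA_0. This sum was 3413.5 and 2033 CPM in AP_1h and 1525 and 1714 CPM in PLA_1h, and its part in the Igfbp6 values was not tested.

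Igfbp7 (NM_001013048), a secreted relative of the family that binds the growth factors weakly and is abundant around vessels, was at 123 and 138 CPM in RA_0, 110 and 63.7 CPM in AP_1h, 76.5 and 99.5 CPM in PLA_1h, 136 and 64.2 CPM in AP_34d, and 93.2 and 107 CPM in PLA_34d. RA_0 was highest by group mean, at 130 ± 11.1 CPM (SD, n = 2), and 7 of the 8 libraries after therapy were below both RA_0 libraries. The 4 differences from RA_0 ran from -0.63 to -0.38, each with an SE of 0.40, and their lowest adjusted p in limma was 0.699. The gene overlaps Polr2b in the annotation, so its reads are uncertain where strand was not used. The summed level of 4 endothelial genes was 160 and 171 CPM in RA_0 and 109 to 216 CPM in the other 8 libraries.

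The comparisons are shown side by side in the plot of differences with their intervals. Libraries of AP_1h and RA_0 did not overlap for 5 of 8 members (Igf2 and Igf2r higher, Igfbp4, Igfbp6 and Igfbp7 lower), against 41.6% of all tested transcripts (20.6% higher and 21.0% lower). For PLA_1h and RA_0 this held for 5 of 8 members (Igf2, Igf1r and Igf2r higher, Igfbp6 and Igfbp7 lower), against 29.4% (15.8% higher and 13.6% lower). It held for 1 member in AP_34d (Igfbp3, higher), against 32.3% in either direction and 16.4% higher. In PLA_34d it held for 2 (Igfbp6 and Igfbp7, lower), against 31.0% in either direction and 14.2% lower. These comparisons share the RA_0 libraries.

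Between the therapies, AP_1h and PLA_1h did not overlap for 3 members (Igf1r, Igf2r and Igfbp5, all lower in AP_1h, with Igf2r at 131.9 against 132.0 CPM at the nearest), against 30.6% in either direction and 16.7% lower. AP_34d and PLA_34d did not overlap for 1 (Igfbp6, higher in AP_34d), against 31.0% and 16% higher. Between times, AP_34d and AP_1h did not overlap for 1 member (Igfbp4, higher at 34 days), against 33.1% and 17.1% higher. PLA_34d and PLA_1h did not overlap for 3 (Igf2, Igf2r and Igfbp6, lower at 34 days), against 27.2% and 14.4% lower. Over both times, 0 members separated acupuncture from placebo, against 2.83%. Below an unadjusted p of 0.05 (limma) there was 1 of 8 members in each of AP_1h against RA_0, PLA_34d against RA_0, AP_34d against PLA_34d and the difference between times, against 8.89%, 3.2%, 5.47% and 4.05% of all tested transcripts. There were 0 of 8 in AP_34d against RA_0, PLA_1h against RA_0, AP_1h against PLA_1h, AP_34d against AP_1h, PLA_34d against PLA_1h and the therapies over both times, against 4.77%, 2.59%, 4.04%, 5.35%, 2.96% and 5.72%. The median difference of the members was -0.16 in AP_1h, 0.31 in PLA_1h, 0.19 in AP_34d and 0.20 in PLA_34d against RA_0, where that of all tested transcripts lay between -0.01 and 0.00.

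**Figure D3:**
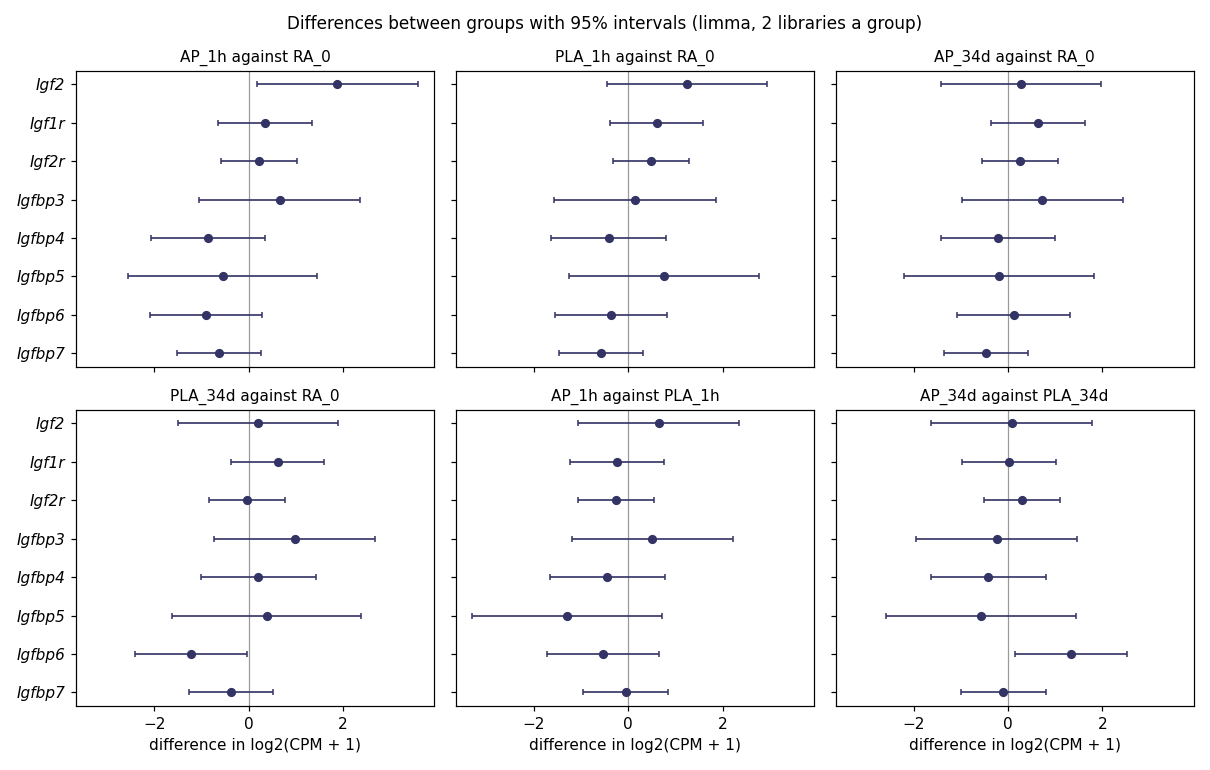
Differences between groups in log2(CPM + 1) for the 8 tested members (points) with 95% intervals from limma, in 6 comparisons of 2 libraries against 2. The interval excludes 0 for Igf2 in AP_1h against RA_0 and for Igfbp6 in PLA_34d against RA_0 and AP_34d against PLA_34d, before adjustment over 10259 transcripts.

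Replicates lay further apart than the median of all tested transcripts for 7 of the 8 members, and further apart than the upper quartile for 5. The SD between libraries of a group on the log2(CPM + 1) scale was 1.23 for Igfbp5, 1.03 for Igfbp3, 1.00 for Igf2, 0.69 for Igfbp4 and 0.67 for Igfbp6, all above the upper quartile of 0.55 over all tested transcripts. Igf1r (0.47), Igfbp7 (0.44) and Igf2r (0.36) were within the middle range of 0.28 to 0.55, whose median was 0.39. This spread enters the SE of each difference above after the moderation in limma, so SE and SD differ. For Igfbp5 the SE of AP_1h against PLA_1h was 0.90, where the SD was 1.23.

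**Figure D4:**
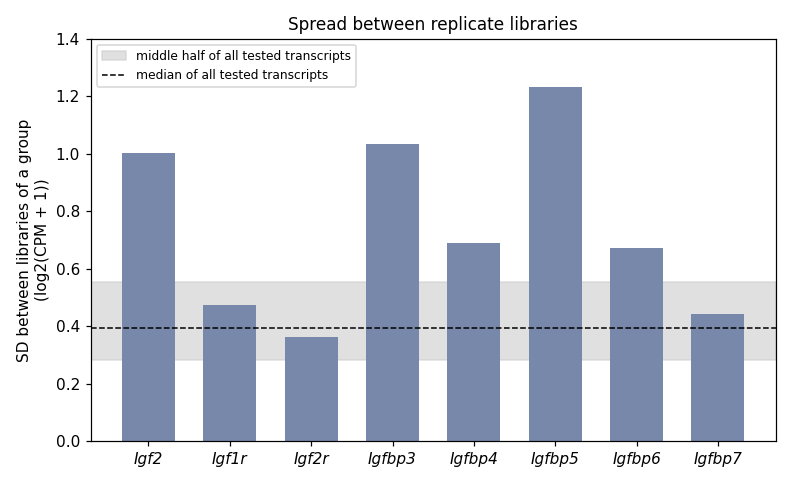
SD between the 2 libraries of a group, pooled over the 5 groups, of log2(CPM + 1) for each tested member (bars, axis from 0). The dashed line and grey band give the median (0.39) and the quartiles (0.28 and 0.55) over all 10259 tested transcripts, and 5 of the 8 members are above the band.

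Across the 10 libraries the 28 pairs of members had Pearson's r from -0.71 to 0.74 with a median of -0.07, given as a description. The highest were Igf1r with Igfbp5 (0.74), Igf1r with Igf2r (0.68), Igfbp6 with Igfbp7 (0.67) and Igfbp3 with Igfbp4 (0.66). The lowest were Igf2 with Igfbp4 (-0.71) and Igf2r with Igfbp7 (-0.70). Without the 2 libraries farthest from the median of the first gene, Igfbp6 with Igfbp7 was 0.79 and Igf2 with Igfbp4 was -0.30.

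Among the 8152 transcripts with a mean of at least 5 CPM, those most like each member over the 10 libraries were found by Pearson's r. They were Bcap29 (0.92) and Pgm2l1 (0.91) for Igf2, Zfp507 and Papd4 (both over 0.96) for Igf1r, and Zkscan5 and Atg4c (both 0.93) for Igf2r. For the binding proteins they were Btg1 (0.97) and Icam1 (0.95) for Igfbp3, Clip2 (0.98) and Tacc1 (0.96) for Igfbp4, and Zfhx4 (0.91) and Tbc1d24 (0.90) for Igfbp5. Cyb5r3 (0.92) and Cd248 (0.91), the latter a marker of pericytes and fibroblasts, were most like Igfbp6, and Chkb and Crip2 (both 0.93) most like Igfbp7. Without the 2 libraries farthest from the median of the member, r was 0.72 for Bcap29 and 0.64 for Pgm2l1, 0.79 for Icam1, an adhesion molecule for leukocytes, and 0.81 to 0.95 for the other 13. These transcripts were picked as the highest of 8152 over 10 libraries that share groups and scaling. Their r values are thus a description, and their size was not tested.

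The wider pathway was followed through 93 listed genes, of which 78 were present and 67 transcripts were tested. With limma, 0 of the 67 passed an adjusted p of 0.05 in any of the 10 comparisons. At an unadjusted p under 0.05 there were 3 (4.48%) in AP_1h, 9 (13.4%, 3 higher and 6 lower) in AP_34d, 3 in PLA_1h and 3 in PLA_34d against RA_0, where all tested transcripts gave 8.89%, 4.77%, 2.59% and 3.2%. Of the other 6 comparisons the count was highest in AP_34d against AP_1h, at 9 against 5.35%. DESeq2 called 2 in AP_1h against RA_0 (Esm1 and H19), 1 in PLA_34d against RA_0 (Ptpn6) and 1 in AP_34d against AP_1h (H19), and 0 in the other 7. Over all tested transcripts DESeq2 called 1.62% in AP_1h, 0.322% in AP_34d, 0.0975% in PLA_1h and 0.37% in PLA_34d against RA_0, 0.38% and 0.848% in acupuncture against placebo at 1 h and 34 days, 0.409% and 0.341% in 34 days against 1 h of acupuncture and of placebo, 0.624% in the therapies over both times and 0.214% in the difference between times.

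Of the 7 tested genes with a domain like that of the binding proteins, Esm1, a secreted proteoglycan of endothelial cells, was at 28.9 and 32.7 CPM in RA_0 and 5.73 and 3.36 CPM in AP_1h. It was at 14.1 and 9.48 CPM in PLA_1h, 9.18 and 3.73 CPM in AP_34d, and 30.8 and 7.68 CPM in PLA_34d. Thus 7 of 8 libraries after therapy were below both RA_0 libraries. Lack of overlap with RA_0 was a condition for naming Esm1, so this count is a description. AP_1h was -2.55 ± 0.59 from RA_0 (limma, adjusted p = 0.233), and DESeq2 called it at adjusted p = 0.00449. Kazald1, of the same list, was at 5.01 and 3.86 CPM in RA_0 and 1.09 and 1.58 CPM in PLA_1h, a difference of -1.22 ± 0.42 (limma, adjusted p = 1.00). It was at 3.03 and 5.32 CPM in AP_1h, 1.17 and 1.94 CPM in AP_34d, and 3.59 and 1.56 CPM in PLA_34d. Kazald1 held 6 to 38 reads a library. Of the 7 tested proteases of binding proteins and their inhibitors, Stc2, an inhibitor of the Pappa protease, was at 6.68 and 4.46 CPM in RA_0. It was at 2.70 and 3.50 CPM in AP_1h and 1.69 and 2.11 CPM in PLA_1h. At 34 days it was at 1.76 and 1.94 CPM in AP_34d and 2.80 and 3.55 CPM in PLA_34d. Stc2 was -1.18 ± 0.35 from RA_0 in AP_34d (limma, adjusted p = 0.931) and -1.16 ± 0.35 in PLA_1h (limma, adjusted p = 1.00). Pappa itself was at 0 to 0.896 CPM.

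In the growth hormone axis, which drives Igf1 transcription in liver and muscle, the receptor Ghr was at 104 to 215 CPM, and its differences from RA_0 ran from -0.41 to 0.10. The feedback inhibitor Cish was at 7.16 and 13.2 CPM in RA_0 and 48.5 and 24.7 CPM in PLA_34d, 1.73 ± 0.70 higher (limma, adjusted p = 0.914). It was at 24.1 and 3.50 CPM in AP_1h, 8.92 and 4.91 CPM in PLA_1h, and 15.4 and 15.8 CPM in AP_34d. The 48.5 CPM was in replicate 1 of PLA_34d, the library with the leukocyte genes, whose part in this value was not tested. Ptpn6, a phosphatase of blood cells, was at 46.9 CPM in replicate 1 of PLA_34d and at 0.954 to 8.86 CPM in the other 9 libraries. Among the adaptors, Irs1, which couples the receptor to PI3K, was at 11.5 to 55.6 CPM and Irs2 at 22.4 to 59.0 CPM. Of 13 tested receptors and adaptors, 0 were at an unadjusted p under 0.05 (limma) against RA_0 in any group. All tested transcripts gave 2.59% to 8.89% there, so 0 of 13 is near that share. In AP_34d against AP_1h there were 2 (15.4%, 1 higher and 1 lower), against 5.35%. In AP_1h against PLA_1h there was 1 (7.69%, higher), against 4.04%.

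Among 29 tested genes of PI3K, Akt and mTOR signalling, 2 reached an unadjusted p below 0.05 for AP_1h against RA_0 (limma), both higher, a share of 6.90% where all tested transcripts gave 8.89%. Foxo1, the transcription factor that Akt keeps out of the nucleus, was at 8.59 and 10.5 CPM in RA_0, 48.2 and 21.8 CPM in AP_1h, 41.4 and 12.3 CPM in PLA_1h, 46.9 and 42.9 CPM in AP_34d, and 39.4 and 13.6 CPM in PLA_34d. All 8 libraries after therapy were above both RA_0 libraries, and AP_34d was 2.12 ± 0.61 above RA_0 (limma, adjusted p = 0.915). Lack of overlap with RA_0 in AP_1h and AP_34d was a condition for naming Foxo1. The separation is thus a description, and the share of all tested transcripts that show it was not determined. Rptor, a subunit of the mTOR complex that senses nutrients, was at 84.3 and 59.1 CPM in AP_1h and 39.6 to 48.1 CPM in the other 8 libraries, 0.71 ± 0.29 above RA_0 (limma, adjusted p = 0.512).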

How the data were processed

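A HiSeq instrument was used to sequence muscle RNA of 10 rats. Per the labels, the study's methods and the submitters' processing notes, the authors trimmed adapters (cutadapt 1.2.1), aligned reads to rat build rn4 (Bowtie2 2.1.0) and counted them per transcript (HTSeq 0.5.4p3, intersection-nonempty mode, UCSC annotation). The deposited signal is CPM scaled with TMM factors (edgeR 3.4.2). In each library 100% of values were whole multiples of 1 read within 0.01 reads, so reads could be recovered. Coordinates refer to rn4 and count from 1.

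The test ran on log2(CPM + 1) in the 10259 transcripts that reached 1 CPM in each library of some group. One limma model (3.58.1, mean trend, with 5 degrees of freedom from the residuals and 5.14 from the prior) was fitted over all 10 libraries with 1 mean per group, and p-values were adjusted by Benjamini-Hochberg over all tested transcripts, with a call at an adjusted p under 0.05. Intervals are 95%. Alternatives were limma-voom, edgeR 4.0.16 and DESeq2 1.42.0 on recovered reads, pseudocounts of 0.25 and 4, other filters and scalings, a replicate block, and each library left out. The test was checked on simulated data with planted changes larger than any difference of a member, so the check does not bear on detection at the sizes seen here. R 4.3.3, Python 3.11.15 and matplotlib 3.10.9 were used.

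All members were described, and for each tested member the 2 transcripts with the highest Pearson's r over the 10 libraries. Of the pathway lists, up to 3 genes per comparison with the smallest unadjusted p under 0.05 and no overlap were eligible to be named, and 1 of these is not reported here. Igfals, Igfbp1, Pappa, Ghr, Irs1, Irs2 and H19 were named for their role. Members, lists and comparisons were chosen with earlier results of these data known. No transcript lengths were used, so levels are not compared between genes.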

Additional observations from a re-analysis of the deposited data

How the results depend on the processing

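Members called stayed at 0 in all 10 comparisons under all 14 processing alternatives and with each of the 10 libraries left out, and the lowest adjusted p of a member over these settings was 0.0674 (Igf2, AP_1h against RA_0, DESeq2). The replicate numbers did not pair the samples (correlations of deviations -0.464 to 0.446, above 0.1 in 4 of 10 pairs of groups), and with the replicate block the members called were 0 as well. Over the alternatives Igf2 ran from 0.59 to 3.18 above RA_0 in AP_1h, and Igfbp6 from 0.38 to 2.30 above PLA_34d in AP_34d. For PLA_34d against RA_0 the sign turned without PLA_34d replicate 1 in Igfbp3 (-0.30, against 2.25 without PLA_34d replicate 2) and Igfbp4 (-0.62, against 1.03), and without RA_0 replicate 1 in Igfbp4 (-0.19). Calls over all transcripts were 3 in AP_1h against RA_0 and 0 in the other comparisons, against 10 to 166 with DESeq2 over the 10, up to 174 with a library left out, and 0 with limma-voom and edgeR. Calls among the 67 pathway transcripts were 0 to 2 in these settings. The cause was not tested. With 2 rats a group small differences can go undetected, and the size that could be detected was not tested. Igf1r held 13 to 82 reads a library. Igfbp5 held 188 to 3199 and had the largest SD between replicates of the members, at 1.23.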
